A study of Mus musculus with 107 samples.

Results

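A set of 10 genes known as transcriptional targets of the Hippo pathway effector YAP was followed through every library of the series: Ccn1, Ccn2, Ankrd1, Amotl2, Ajuba, Thbs1, Lats2, Arhgef17, F3 and Ptpn14. They were chosen by symbol, and all 10 of them were found by their mouse Entrez identifiers among the 27179 genes that were counted. The measurement was RNA bound to HA-tagged ribosomes (RiboTag), pulled down with an antibody to the tag and sequenced, in 107 libraries of 23 groups. A level below is the number of reads on the gene scaled to a common library total (CPM), unless it is given per kilobase of exon (FPKM).

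Their positions on the mouse build mm10, in RefSeq's annotation of GRCm38.p6, are chr3:145646971-145649985 (Ccn1, Entrez 16007), chr10:24595442-24598683 (Ccn2, 14219), chr19:36111965-36119844 (Ankrd1, 107765), chr9:102717091-102733418 (Amotl2, 56332), chr14:54567469-54577661 (Ajuba, 16475), chr2:118111876-118127133 (Thbs1, 21825), chr14:57689662-57746212 (Lats2, 50523), chr7:100869746-100932161 (Arhgef17, 207212), chr3:121723537-121735052 (F3, 14066) and chr1:189728216-189876695 (Ptpn14, 19250). Reads were counted over exons of each gene at default settings with no strand setting named, and 4 of the loci overlap other annotated genes (Ccn2 with Gm15270, Lats2 with Gm52140 and Gm26440, Arhgef17 with Mir3102, Ptpn14 with Gm51739, Gm30280 and Gm26574), whose reads cannot be told apart from theirs where exons coincide.

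All cultured and grafted cells descended from 1 female mouse ESC line of C57BL/6 background that carries RiboTag in every cell after recombination by a Sox2-cre allele, so that the neural progenitor cells (NPC) represent a single line. The groups without injury or treatment were ESC (n = 4), NPC P5, NPC P15 and NPC P30, which are passages 5, 15 and 30 after a first derivation from ESC (n = 4 each), and passage 15 after a repeat of it, as NPC P15 D2 (n = 6) and NPC P15 D3 (n = 4), all NPC being grown with EGF and FGF at 100 ng/ml. Differentiation lasted 4 days with both mitogens at 1 ng/ml, either without further additions (SPONT), with CNTF or IGF-1 at 100 ng/ml, with fetal bovine serum (FBS) at 1, 5, 10 or 20%, or with CNTF and 5% FBS together (n = 4 each). Pregraft NPC had passed through a glass pipette in media (NPC media), in DCH, an injectable hydrogel used to carry cells (NPC DCH), or in DCH after 4 hours inside it (NPC DCH 4 h, n = 5 each). Grafts were the same RiboTag NPC placed into the spinal cord of young adult mice and recovered at 14 d from uninjured cord, from a crush injury (SCI) or from a double crush injury (dSCI), and at 5 d from SCI (n = 5 each). Per the study, NPC were injected in the hydrogel, and into SCI some days after the crush. It counts the 14 d from injury in some places and from grafting in others. Because RiboTag marks every descendant of the grafted cells, the pull-down does not select a cell type among them. Host astrocytes came from 73.12 Gfap-Cre RiboTag mice without grafts, in which the Gfap promoter drives recombination, from healthy cord (n = 9) and at 14 days after crush SCI (n = 5). The study's reporting describes its culture experiments as independent biological replicates repeated over cell stocks, without saying which library came from which stock.

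YAP and its relative TAZ are co-activators that enter the nucleus when the Hippo kinases are inactive, as on stiff substrates, in spread cells or in the presence of serum lipids, and act there through TEAD transcription factors. Their targets include secreted matrix proteins, cytoskeletal regulators and components of the Hippo pathway itself, which feed back on YAP. In the nervous system YAP is known from proliferating progenitors and from reactive astrocytes, and neurons contain little of it. Among the 10 genes, Ccn1 and Ccn2 encode matricellular proteins of the CCN family (older names Cyr61 and Ctgf), Thbs1 encodes the matrix glycoprotein thrombospondin 1, and F3 encodes tissue factor, the membrane receptor that starts coagulation. Ankrd1 encodes an ankyrin repeat protein of the nucleus and sarcomere that is induced by stretch, and Arhgef17 a guanine nucleotide exchange factor. Lats2 encodes a kinase that phosphorylates YAP, Amotl2 an angiomotin family protein that holds YAP in the cytoplasm, Ajuba a LIM protein that restrains LATS kinases, and Ptpn14 a phosphatase that binds YAP.

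Promoter sequences are shown because TEAD factors are known to recognise the letters GGAATG. The members were chosen as known YAP targets, so how often these letters occur in them is no test of the serum response. RefSeq windows on GRCm38.p6, from 250 bases before to 50 bases after each start, were at hand for 7 of the 10 members, Ccn2, Thbs1 and Arhgef17 being without one. GGAATG was found on either strand in 6 of these 7 genes, and its share over all genes with a window was 16.6% (4481 of 27025). The 250 bases before the start are printed for 4 members with capitals at GGAATG, or CATTCC where it lies on the other strand, and in F3 at the AP-1 letters TGANTCA, which are their own reverse complement and were in 8.97% of all genes with a window. The windows lie at chr3:145649986-145650235, minus strand (Ccn1), chr19:36119845-36120094, minus strand (Ankrd1), chr14:54577662-54577911, minus strand (Ajuba), and chr3:121723287-121723536, plus strand (F3):
Ccn1: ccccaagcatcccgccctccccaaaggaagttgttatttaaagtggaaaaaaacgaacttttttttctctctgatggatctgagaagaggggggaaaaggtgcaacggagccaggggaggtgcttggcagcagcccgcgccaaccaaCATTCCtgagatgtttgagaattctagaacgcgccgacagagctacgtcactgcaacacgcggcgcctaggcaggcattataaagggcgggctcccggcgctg
Ankrd1: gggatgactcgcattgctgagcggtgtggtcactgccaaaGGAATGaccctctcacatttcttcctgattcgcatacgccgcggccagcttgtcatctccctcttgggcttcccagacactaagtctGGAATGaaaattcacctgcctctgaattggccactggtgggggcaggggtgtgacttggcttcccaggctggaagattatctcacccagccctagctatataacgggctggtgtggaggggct
Ajuba: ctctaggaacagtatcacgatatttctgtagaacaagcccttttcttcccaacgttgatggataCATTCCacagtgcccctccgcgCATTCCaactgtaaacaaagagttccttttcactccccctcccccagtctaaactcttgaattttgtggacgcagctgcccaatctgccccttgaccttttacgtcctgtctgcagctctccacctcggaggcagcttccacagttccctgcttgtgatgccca
F3: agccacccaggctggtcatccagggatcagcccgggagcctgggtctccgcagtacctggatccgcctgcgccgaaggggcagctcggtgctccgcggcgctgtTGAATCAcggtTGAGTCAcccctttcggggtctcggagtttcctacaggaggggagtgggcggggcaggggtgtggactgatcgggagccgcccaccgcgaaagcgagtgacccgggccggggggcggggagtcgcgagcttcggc
The letters began 103 bases before the start of Ccn1, 210 and 123 before that of Ankrd1, and 186 and 164 before that of Ajuba. One match each lay 65 bases before the start of Amotl2, 146 before that of Ptpn14 and at base 5 after one of the starts of Lats2. F3 held no GGAATG in its window and the AP-1 letters at the places shown in capitals. No binding was measured in this series, and a match of letters is a description of the sequence only.

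The counts summed to 30473157–147764968 per library in the 96 libraries whose headers name 2 read data sets and to 12286240–18085106 in the 11 with 1, which are NPC P15 D2 and the 5 d grafts. ESC and astrocyte markers followed the labels. The summed level of 4 ESC markers was 1466–1526 CPM in ESC and at most 3.49 CPM elsewhere. The 5 astrocyte markers summed to a median of 35622 CPM in healthy host astrocytes and 30187 CPM in host astrocytes after SCI. NPC markers did not separate NPC from their progeny, with median sums of 2710 CPM in NPC P15, 2710 CPM in SPONT and 2718 CPM in CNTF. In host astrocytes after SCI the median oligodendrocyte sum, 31628 CPM, was above the astrocyte sum. In grafts the astrocyte sum had medians of 18302 CPM (SCI 14 d), 11708 CPM (uninjured), 8501 CPM (dSCI) and 14765 CPM (SCI 5 d), and genes of fibroblasts, myeloid cells and endothelium were present too, as given beside the results they touch. Differences (log2FC) come from edgeR after TMM scaling and were called at an adjusted p below 0.01 over all genes tested. TMM moved log2FC against scaling by library totals by 0.13 (SPONT against NPC P15), 0.33 (SCI 14 d against NPC DCH), 0.17 (14 d against 5 d), 0.28 and 0.25 (SCI and dSCI against uninjured) and −0.18 (host SCI against healthy), so levels in CPM and log2FC differ by these amounts, and by at most 0.07 in the other comparisons.

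Of the 23 groups, 20% FBS had the highest mean level of Ccn1, Ccn2, Ankrd1, Amotl2, Thbs1, Lats2 and Ptpn14. Ajuba was highest in ESC (386 ± 17.7 CPM, SD, n = 4), Arhgef17 in grafts of uninjured cord (121 ± 36.7 CPM, SD, n = 5) and F3 in healthy host astrocytes (283 ± 16.1 CPM, SD, n = 9). The span from the lowest to the highest group mean was 2187-fold for Thbs1, 774-fold for Ccn2, 108-fold for Ccn1, 76.0-fold for Ajuba, 67.7-fold for F3, 27.7-fold for Lats2, 24.1-fold for Ptpn14, 21.2-fold for Amotl2 and 3.46-fold for Arhgef17. With the groups set in order of their means, 17 to 22 of the 22 neighbouring pairs overlapped in their library values, depending on the gene. Neighbours were not tested as such, and overlap of ranges does not show that groups are alike. For Arhgef17 all 22 overlapped. Per kilobase of exon, Ccn1 was the most abundant member in 20% FBS (427 ± 64.2 FPKM), followed by Ccn2 (334 ± 17.2 FPKM) and Thbs1 (162 ± 22.6 FPKM). Ajuba (74.4 ± 2.99 FPKM) and Amotl2 (72.4 ± 2.75 FPKM) were close to each other there, and Ankrd1 was lowest at 1.23 ± 0.583 FPKM (SD, n = 4). In healthy host astrocytes the order differed, with F3 at 112 ± 6.37 FPKM and every other member at 11.5 FPKM or less.

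Serum was added in rising concentration to ask how NPC that lose mitogens respond to a blood-derived stimulus. Between SPONT and 20% FBS Thbs1 rose 1503-fold, Ccn2 730-fold and Ccn1 42.5-fold in the edgeR fit, and the other members between 1.57-fold and 10.2-fold, apart from Ankrd1, whose ratio rests on 2 reads in SPONT and is given below. From 1% to 5% FBS 8 of the 9 members tested rose. In these bulk libraries a change can reflect the share of cells that use a gene or the RNA per cell, since fewer cells of a type and less RNA per cell cannot be told apart.

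Thbs1 was at 0.495, 0.595, 0.752 and 0.705 CPM in the 4 SPONT libraries and at 4.52, 3.96, 1.62 and 2.16 CPM in 1% FBS. It then stood at 238.3, 129, 195 and 299 CPM in 5% FBS, 492, 258, 649 and 685 CPM in 10% FBS, and 1092, 947, 1091 and 805 CPM in 20% FBS. Every dose except 10% lay wholly above the dose before it, the lowest 10% library falling inside the range of 5% FBS. The log2FC were 2.28 (SE 0.34, adjusted p = 0.00113) for 1% FBS against SPONT and 6.14 (SE 0.38, adjusted p = 1.9e-06) for 5% against 1%. From 5% to 10% the log2FC of Thbs1 was 1.26 (SE 0.32, adjusted p = 0.0343) and from 10% to 20% it was 0.89 (SE 0.24, adjusted p = 0.0335), neither of them called. Without 10% FBS 2, the lowest library of its group, both were (1.48, adjusted p = 0.00829, and 0.68, adjusted p = 0.00460).

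Ccn2 was at 0.885–1.74 CPM in SPONT and at 34.4, 28.3, 12.2 and 14.2 CPM in 1% FBS. Its levels were 574, 347.5, 350.1 and 473 CPM in 5% FBS, 737, 471, 687 and 697 CPM in 10% FBS, and 896, 962, 945 and 1015 CPM in 20% FBS. The gene thus differed between SPONT and 1% FBS without overlap, and 10% FBS overlapped with 5% FBS. The log2FC were 4.15 (SE 0.37, adjusted p = 5.4e-05) from SPONT to 1% FBS and 4.29 (SE 0.35, adjusted p = 1.0e-05) from 1% to 5%, then 0.56 (SE 0.19, adjusted p = 0.0891) and 0.53 (SE 0.12, adjusted p = 0.0160) for the 2 upper steps, the last of which was called without 10% FBS 2 (0.41, adjusted p = 0.00153). Ccn1 was at 15.7, 18.9, 22.2 and 22.2 CPM in SPONT, 59.9, 63.7, 61.0 and 59.3 CPM in 1% FBS and 551, 573, 441 and 461 CPM in 5% FBS. It reached 566, 496, 718 and 677 CPM in 10% FBS and 861, 938, 972 and 681 CPM in 20% FBS, the ranges of the 3 upper doses overlapping from one to the next. Its log2FC was 1.64 (SE 0.12, adjusted p = 1.5e-05) from SPONT to 1% and 3.05 (SE 0.11, adjusted p = 1.1e-07) from 1% to 5%.

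**Figure D1:**
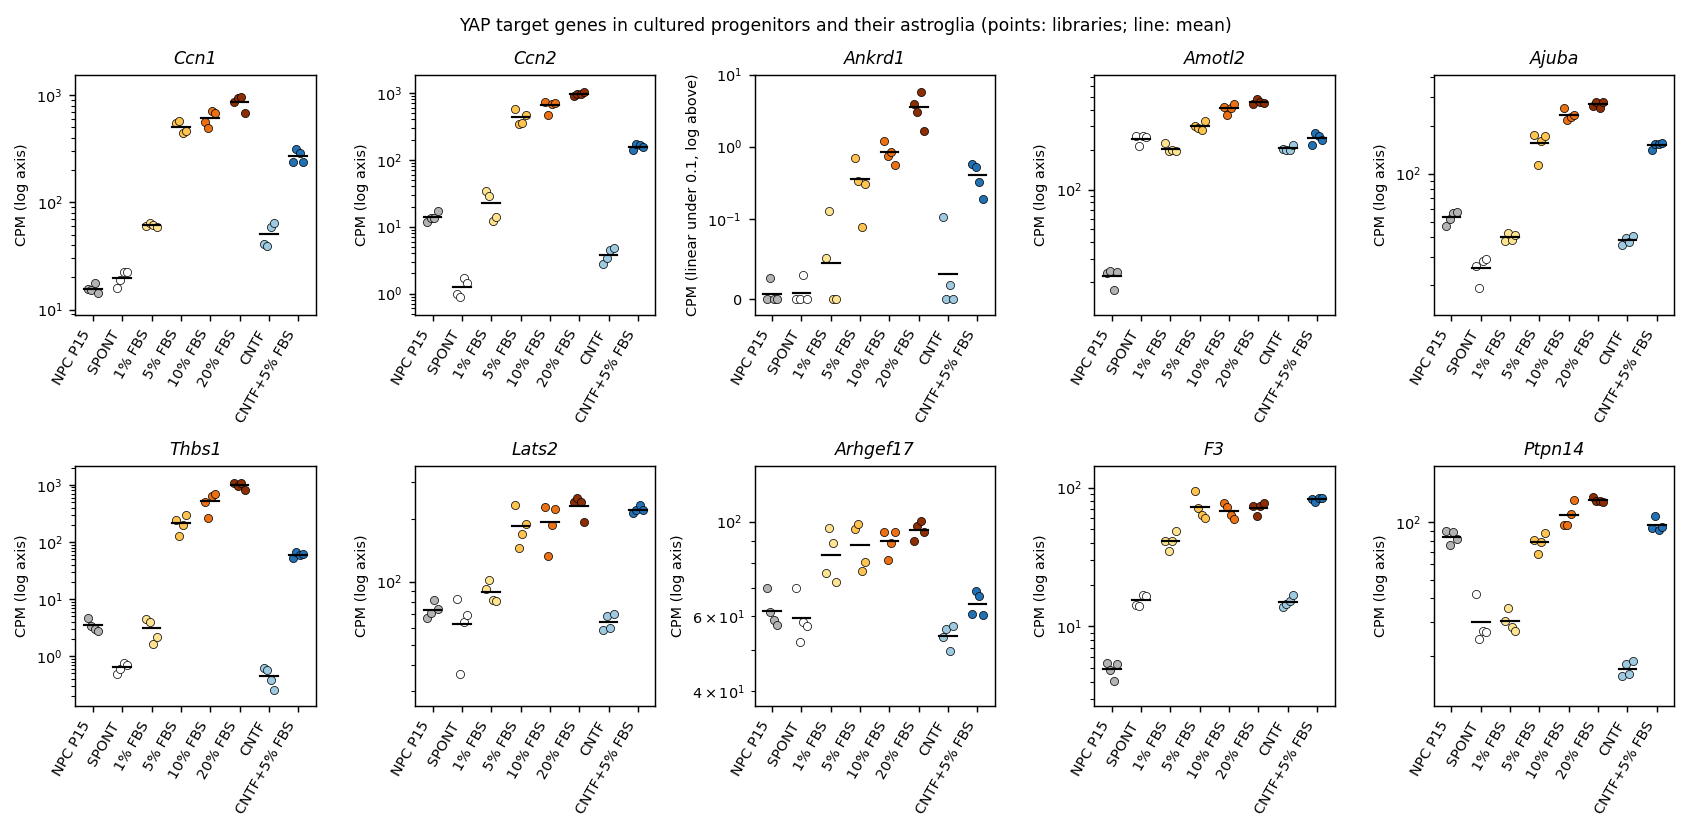
Levels of the 10 members in cultured NPC and their progeny, with 1 panel per gene, the groups NPC P15, SPONT, 1 to 20% FBS, CNTF and CNTF+5% FBS on the x axis and CPM on a log y axis (for Ankrd1 linear under 0.1); points are the 4 libraries of a group and lines their means. The levels of Thbs1, Ccn2 and Ccn1 in 20% FBS (805–1092, 896–1015 and 681–972 CPM) lie above every SPONT library, while Arhgef17 stays between 49.5 and 100.4 CPM.

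Ankrd1 was nearly silent without serum. Its reads numbered 2 in all 4 SPONT libraries together and 12 in 1% FBS, which is why edgeR's filter removed it from the comparisons of low doses. It was at 0.704, 0.336, 0.0895 and 0.2996 CPM in 5% FBS, 1.19, 0.733, 0.844 and 0.555 CPM in 10% FBS and 3.93, 2.99, 5.65 and 1.64 CPM in 20% FBS. Every 20% library lay above every 10% library, a rise with a log2FC of 2.06 (SE 0.36, adjusted p = 0.00524). This call was lost when any 1 of 5 libraries was left out (10% FBS 3 or 4, or 20% FBS 1, 2 or 3), with log2FC from 1.75 to 2.13 there and adjusted p from 0.0117 to 0.0205. The ratio of pooled CPM was 9.28 (95% interval 5.10–18.5) from 1% to 5% FBS, 2.28 (1.81–2.88) from 5% to 10% and 488 (134.7–4033) from SPONT to 20% FBS. These intervals cover counting error only and take reads as independent, so they are too narrow where both mates of a fragment were counted. The last ratio rests on 2 reads, both in SPONT 3. Leaving out single libraries, a choice made after seeing the data, gave 5.95 without 5% FBS 1 and 22.2 without 1% FBS 2 for the first, 3.55 without 5% FBS 1 for the second, and at least 246-fold higher against 3 counts over the group without SPONT 3 for the last.

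Among the cytoskeletal and Hippo components the rises were smaller. Ajuba was at 26.5, 19.4, 28.5 and 29.1 CPM in SPONT, 174, 113, 160.1 and 170.8 CPM in 5% FBS and 265, 280.0, 259 and 281 CPM in 20% FBS. The groups did not overlap, and the log2FC from SPONT to 20% FBS was 3.35 (SE 0.12, adjusted p = 1.5e-09). Lats2 was at 82.2, 36.2, 64.1 and 69.1 CPM in SPONT and 242, 250.5, 240.0 and 192.9 CPM in 20% FBS (log2FC 1.84, SE 0.20, adjusted p = 1.2e-05). Its rise lay between 1% FBS (80.9–101.996 CPM) and 5% FBS (145–234 CPM), at a log2FC of 1.04 (SE 0.14, adjusted p = 0.000218). Ptpn14 was at 24.5–42.0 CPM in SPONT and 26.99–35.6 CPM in 1% FBS, 2 groups that overlapped, and at 68.2–87.5 CPM in 5% and 127.1–136 CPM in 20% FBS (20% against SPONT, log2FC 2.07, SE 0.15, adjusted p = 4.8e-07). Amotl2 was at 254, 211, 253 and 248 CPM in SPONT, already high, and at 439, 479, 454 and 449 CPM in 20% FBS. It rose by a log2FC of 0.87 (SE 0.07, adjusted p = 1.3e-06), although in 1% FBS (194.3–225 CPM) it was not called against SPONT (log2FC −0.23, SE 0.08, adjusted p = 0.0786).

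F3 and Arhgef17 followed another course. F3 was at 14.3, 14.1, 16.996 and 16.5 CPM in SPONT, 41.2, 34.7, 41.1 and 48.4 CPM in 1% FBS and 94.4, 71.9, 63.2 and 60.6 CPM in 5% FBS. It stood at 59.9–77.8 CPM in 10% and 62.99–77.04 CPM in 20% FBS, so that the 3 upper doses overlapped, and its log2FC was 1.43 (SE 0.11, adjusted p = 2.8e-05) from SPONT to 1% and 0.81 (SE 0.14, adjusted p = 0.00123) from 1% to 5%. Arhgef17 was at 69.8, 52.1, 58.1 and 56.9 CPM in SPONT and 90.2, 97.5, 100.4 and 94.8 CPM in 20% FBS. These groups did not overlap, the difference was 0.65 (log2FC, SE 0.09, adjusted p = 8.0e-05), and most of it was already seen in 1% FBS (72.2–96.5 CPM) without a call (0.51, SE 0.12, adjusted p = 0.0134). It was called there without SPONT 1 (0.59, adjusted p = 0.00655) or 1% FBS 4 (0.59, adjusted p = 0.00998). From 1% to 5% FBS no change was called (log2FC 0.07, SE 0.12, adjusted p = 0.656).

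By counts, 5 of 9 members tested rose from SPONT to 1% FBS (Ccn2, Thbs1, Ccn1, F3 and Ajuba) and none fell, where 8.78% of all genes tested were called and 5.63% rose. Lats2 (log2FC 0.52, SE 0.19, adjusted p = 0.0848) and Ptpn14 (0.03, SE 0.16) were not called. The call of Ajuba there (log2FC 0.65, SE 0.12, adjusted p = 0.00382) was lost without any 1 of the 4 libraries of 1% FBS, at adjusted p from 0.0115 to 0.0166. From 1% to 5% FBS 8 of 9 rose, all but Arhgef17, Ajuba by 1.94 (log2FC, SE 0.13), Ptpn14 by 1.37 (SE 0.11) and Amotl2 by 0.56 (SE 0.08), against 31.1% of genes called and 17.4% higher, and leaving out any library kept the count at 8. From 5% to 10% FBS edgeR called 0 of 10 members at a background of 1.82%. There 6 of the 10 had an unadjusted p under 0.05, as had 27.2% of genes, and DESeq2 called 4 (Amotl2, Ajuba, Thbs1 and Ptpn14) and 10.5% of genes. Without 10% FBS 2 edgeR called 2, Thbs1 and Amotl2 (0.48, adjusted p = 0.00879). The log2FC of members not yet given for this step lay between −0.10 (F3) and 0.58 (Ajuba), apart from 1.19 (SE 0.50, adjusted p = 0.160) for Ankrd1. From 10% to 20% FBS 1 of 10 was called, Ankrd1, where 4.4% of genes were, with Ccn1 at 0.46 (SE 0.13, adjusted p = 0.0384) and the members not yet given between 0.04 (F3) and 0.24 (Lats2). Between SPONT and 20% FBS 9 of the 9 members that were above the floor in both groups rose, as did Ankrd1, which passed the filter through 20% FBS alone. Across all genes 55.5% were called in that comparison and 27.6% rose. The median log2FC was 2.76 over the 10 members and 2.17, the value of F3, without Ankrd1, where the median over all genes tested was −0.03.

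Marker genes of fibroblasts and pericytes moved with serum as well. Their summed level (Col1a1, Col1a2, Col3a1, Dcn, Lum, Pdgfrb and Rgs5) was 12.4–15.8 CPM in SPONT, 22.7–124 CPM in 1% FBS, 151–539 CPM in 5%, 201–358 CPM in 10% and 454–547 CPM in 20% FBS. The defining genes of the list were uneven in 20% FBS, with a median of 342 CPM for Col1a1, 84.1 for Pdgfrb, 49.1 for Dcn and 17.4 for Col3a1, and only 0.522 for Col1a2, 1.05 for Lum and 0.237 for Rgs5. Endothelial markers went from 0.691–1.42 CPM in SPONT to 63.9–69.4 CPM in 20% FBS, oligodendrocyte markers from 239.96–1223 to 17.4–20.96 CPM and astrocyte markers from 7075–10832 to 4286–4889 CPM. Whether a changed mix of cells contributes to the members' levels was not tested.

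**Figure D2:**
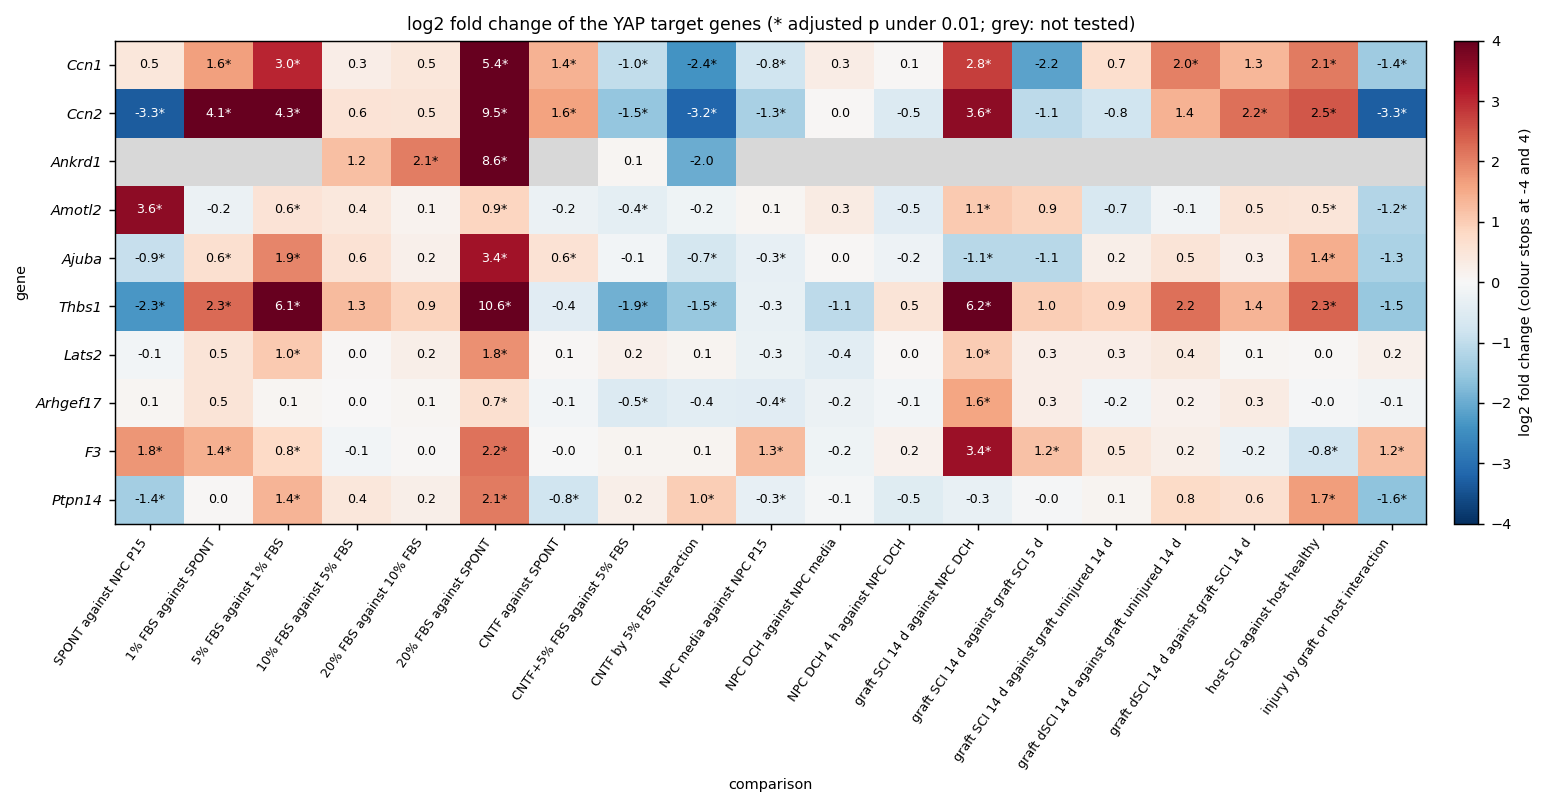
Fold changes of the 10 members (rows) in the comparisons of the series (columns) as log2FC from edgeR, with red for higher, blue for lower (colours end at 4 and −4), an asterisk at an adjusted p below 0.01 and grey where the gene was not tested. All 10 members are called higher in 20% FBS against SPONT, where 27.6% of all genes tested rose, and Ankrd1 among them passed the filter through 20% FBS alone. In 10% against 5% FBS and in SCI against uninjured grafts no member is called, where 1.82% and 4.64% of genes are.

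The other genes of the pathway moved in both directions. Of 24 Hippo pathway genes and effectors, 13 rose and 4 fell between SPONT and 20% FBS (median log2FC 0.67), where 55.5% of all genes tested were called and 27.6% rose, the background for each list here. TAZ (gene symbol Wwtr1) rose by 1.97 (SE 0.15) and Yap1 by 0.56 (SE 0.08). The TEAD factors divided, Tead1 (1.48, SE 0.13), Tead3 (1.02, SE 0.08) and Tead4 (0.95, SE 0.17) rising and Tead2 falling (−0.66, SE 0.12). The scaffold Wwc1 (2.37, SE 0.11) and the protocadherins Fat4 (1.80, SE 0.11) and Fat1 (1.33, SE 0.09) rose too, and the kinase Map4k4 fell (−0.80, SE 0.09). The TEAD cofactor Vgll3, named here after its value was seen, rose most (7.26, SE 0.17). Among 14 further genes published as YAP/TAZ-TEAD targets, 12 rose and 1 fell, with a median of 1.70, for example the growth factor binding protein Igfbp3 (4.34, SE 0.10) and the matrix protein Ccdc80 (3.29, SE 0.09). All 12 targets of SRF and its MRTF co-activators, which share serum as a stimulus with YAP, rose (median 3.64), led by the smooth muscle genes Acta2 (10.65, SE 0.25) and Tagln (8.85, SE 0.21). Only 11 of them were tested in 1% FBS against SPONT and in 5% against 1% FBS. The remaining gene passed the filter here through 20% FBS, so its rise carries no weight. From 10% to 20% FBS 8 of these 12 genes rose, where 4.4% of genes were called. Of 12 immediate-early genes 9 rose and 1 fell (median 1.88), among them Ier3 (2.81, SE 0.19), Egr1 (2.22, SE 0.11) and Junb (2.16, SE 0.20).

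CNTF, a cytokine that directs NPC to an astrocyte fate, was given with and without 5% FBS. Without serum it raised Ccn1 and Ccn2, and together with 5% FBS both genes were lower than with 5% FBS alone. Thbs1, Amotl2 and Arhgef17 were also lower with CNTF in serum, and no member rose there.

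Ccn1 was at 40.6, 39.05, 59.2 and 64.5 CPM in CNTF, above all 4 SPONT libraries (15.7–22.2 CPM), a rise of 1.38 (log2FC, SE 0.18, adjusted p = 0.000199). With 5% FBS it was at 236, 315, 290.0 and 236 CPM in CNTF+5% FBS, below all 5% FBS libraries (441–573 CPM), a fall with a log2FC of −0.99 (SE 0.13, adjusted p = 0.000378). The effect of CNTF on Ccn1 therefore had opposite signs without and with serum, and the interaction was −2.38 (SE 0.24, adjusted p = 1.4e-06). Ccn2 was at 2.73, 3.44, 4.43 and 4.75 CPM in CNTF and at 138, 174, 165 and 153 CPM in CNTF+5% FBS. Its values in CNTF lay above SPONT (log2FC 1.61, SE 0.25, adjusted p = 0.000651) and those in CNTF+5% FBS below 5% FBS (log2FC −1.54, SE 0.16, adjusted p = 0.000130), with an interaction of −3.16 (SE 0.30, adjusted p = 7.6e-07).

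Thbs1 was at 0.615, 0.573, 0.380 and 0.261 CPM in CNTF, overlapping with SPONT (log2FC −0.45, SE 0.31, adjusted p = 0.291). In CNTF+5% FBS it was at 52.7, 65.7, 59.5 and 61.5 CPM, below every 5% FBS library (129–299 CPM), which gave a fall of −1.92 (SE 0.22, adjusted p = 0.000188). The interaction for Thbs1 was −1.51 (SE 0.41, adjusted p = 0.00850), a call lost in 12 of the 16 fits that left out 1 library (SPONT 1 to 4, CNTF 1 to 3, 5% FBS 1 or CNTF+5% FBS 1 to 4), at adjusted p from 0.0105 to 0.0397. Amotl2 was at 215, 264, 254 and 237 CPM in CNTF+5% FBS and 280.1–330.8 CPM in 5% FBS (log2FC −0.38, SE 0.08, adjusted p = 0.00544), and Arhgef17 at 60.2–68.6 CPM against 76.6–98.8 CPM (−0.53, SE 0.10, adjusted p = 0.00246). Neither pair of groups overlapped. The call of Amotl2 was lost in 5 of the 8 fits that left out a library (5% FBS 1 or 4, or CNTF+5% FBS 1, 3 or 4, at adjusted p from 0.0109 to 0.0225) and that of Arhgef17 in 2 (CNTF+5% FBS 1 or 4, 0.0104 and 0.0109). The interaction of Arhgef17 (−0.43, SE 0.14, adjusted p = 0.0199) was called without SPONT 1 or 5% FBS 3 (−0.51 and −0.50). Without serum Amotl2 was at 197–218 CPM in CNTF, and its log2FC of −0.22 (SE 0.07, adjusted p = 0.0313) was called without SPONT 2 (−0.26, adjusted p = 0.00158).

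Ajuba and Ptpn14 moved in other ways. Ajuba was at 35.99, 39.3, 37.6 and 40.4 CPM in CNTF against 19.4–29.1 CPM in SPONT (log2FC 0.59, SE 0.11, adjusted p = 0.00245) and at 141–156 CPM in CNTF+5% FBS, within the range of 5% FBS, with an interaction of −0.71 (SE 0.17, adjusted p = 0.00418). Both calls were lost with 1 library left out, the first without CNTF 4 (adjusted p = 0.0108) and the second without CNTF+5% FBS 1 (0.0104). Ptpn14 was at 15.8, 18.1, 16.2 and 18.7 CPM in CNTF, below all SPONT libraries (24.5–42.0 CPM), at −0.79 (log2FC, SE 0.16, adjusted p = 0.00340). This fall was not called without CNTF 1, 2 or 3 (adjusted p from 0.0107 to 0.0149). In CNTF+5% FBS Ptpn14 was at 91.0–108 CPM, above 5% FBS (68.2–87.5 CPM) without a call (0.22, SE 0.09, adjusted p = 0.0754), and its interaction was 0.99 (SE 0.19, adjusted p = 0.000759). F3 (13.9–16.9 CPM in CNTF, 78.6–84.8 CPM in CNTF+5% FBS) and Lats2 (58.8–70.0 and 212–232 CPM) had no call in either comparison.

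By counts with CNTF, 3 of 9 members tested rose and 1 fell with CNTF alone, where 19.9% of genes were called. With serum 0 rose and 5 of 10 fell, where 23.3% of genes were called and 12.0% fell, and 5 of 10 had a called interaction against 22.9% of genes, the others lying between −1.97 (Ankrd1, SE 1.59) and 0.12 (Lats2, SE 0.24). The median log2FC of the members was −0.24 for CNTF in serum and −0.57 for the interaction, beside −0.02 and −0.05 over all genes. Ankrd1 held 118 reads in CNTF+5% FBS and 108 in 5% FBS, a ratio of 1.10 (95% interval 0.841–1.44), or 1.72 without 5% FBS 1. Among SRF and MRTF targets 6 of 11 fell with CNTF in serum and none rose, Acta2 by −2.03 (SE 0.13) and Tagln by −1.58 (SE 0.12). Immediate-early genes rose with CNTF alone (7 of 12, with 1 lower), Junb by 2.88 (SE 0.29). The fibroblast and pericyte sum was 21.1–27.5 CPM in CNTF+5% FBS and 151–539 CPM in 5% FBS, and the astrocyte sum was 22071–23099 CPM in CNTF and 7075–10832 CPM in SPONT. Their part in these differences was not tested.

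**Figure D3:**
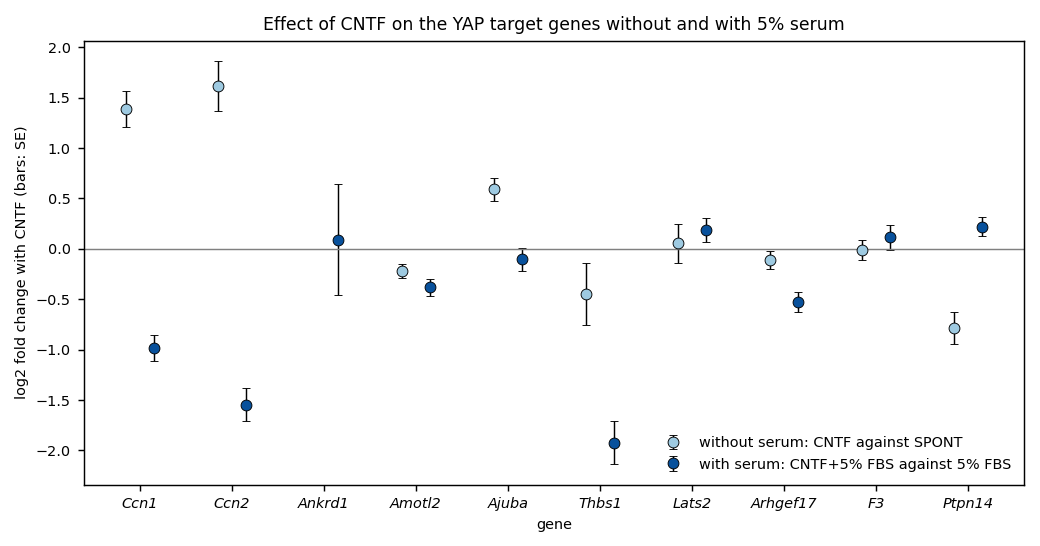
Effect of CNTF on each member as log2FC from edgeR with bars of 1 SE, without serum (CNTF against SPONT) and with serum (CNTF+5% FBS against 5% FBS). Ccn1 and Ccn2 lie above 0 without serum (1.38 and 1.61) and below 0 with it (−0.99 and −1.54), and Ankrd1 has no value without serum because it was not tested there.

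Among undifferentiated cells the members differed between ESC, passages and derivations, which were compared as levels only. Ccn1 had means of 99.4 CPM in ESC, 31.8, 15.7 and 8.00 CPM in NPC P5, P15 and P30, 110.2 CPM in NPC P15 D2 and 19.6 CPM in NPC P15 D3. The 6 libraries of D2 (101.4–119.7 CPM) lay above those of the other NPC groups for this gene, and they have 1 read data set each, so that derivation and read layout cannot be told apart. Ccn2 had means of 94.03 CPM in ESC, 15.1, 14.0 and 4.11 CPM in NPC P5, P15 and P30, 17.9 CPM in D2 and 34.2 CPM in D3. Ankrd1 was at 1.205 and 1.29 CPM in 2 ESC libraries and at 0 in the other 2. Lats2 was at 7.32–10.5 CPM in ESC and 41.5–81.9 CPM over all NPC groups.

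Between NPC P15 and SPONT, which had less of both mitogens, members changed in both directions. The labels give no passage or derivation for SPONT, so these cannot be told apart from the loss of mitogens. NPC cultures differed among themselves, for F3 from a mean of 4.18 CPM in NPC P15 D3 to 13.0 CPM in NPC P15 D2. Amotl2 went from 23.3, 24.2, 17.4 and 23.9 CPM in NPC P15 to 211–254 CPM in SPONT, a rise of 3.57 (log2FC, SE 0.12, adjusted p = 1.2e-09). F3 went from 4.04–5.44 to 14.1–16.996 CPM (1.78, SE 0.15, adjusted p = 1.6e-06). The groups were apart for both genes. Ccn2 fell from 11.8, 13.6, 13.4 and 17.2 CPM in NPC P15 to 0.885–1.74 CPM in SPONT (−3.33, SE 0.25, adjusted p = 4.8e-07) and Thbs1 from 2.81–4.73 to 0.495–0.752 CPM (−2.32, SE 0.33, adjusted p = 9.5e-05). Ptpn14 (−1.35, SE 0.16) and Ajuba (−0.91, SE 0.13) fell too, and Ccn1 (0.46, SE 0.14, adjusted p = 0.0123), Lats2 (−0.10, SE 0.19) and Arhgef17 (0.07, SE 0.10) were not called. Ccn1 was called without SPONT 1 (0.54, adjusted p = 0.00317). Thus 2 of 9 members rose and 4 fell, where 57.2% of all genes tested were called. Of these 14852 genes 4420 rose and 4071 fell, so many genes moved in either direction. Of the 24 Hippo genes and effectors 15 fell and 1, Tead3, rose (0.82, SE 0.12), with Yap1 at −1.07 (SE 0.09) and Tead1 at −1.51 (SE 0.11). The astrocyte sum was 726–764 CPM in NPC P15 and the oligodendrocyte sum 6.16–8.66 CPM, below SPONT in both cases, and their part was not tested. In IGF-1 Ccn2 (1.12–1.49 CPM) lay within the range of SPONT, and Thbs1 (0.364–0.487 CPM) and Amotl2 (160.4–205 CPM) lay below it, a comparison that was not tested.

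Passage through a pipette and the hydrogel were measured to see what handling does to NPC before grafting. Against NPC P15 the pipetted NPC media libraries had 1 member higher and 5 lower of 9 tested, at a background of 26.2%. F3 was at 10.8, 12.5, 10.7, 9.35 and 15.9 CPM in NPC media against 4.04–5.44 CPM in NPC P15 (log2FC 1.27, SE 0.21, adjusted p = 8.6e-05). Ccn2 was at 6.75, 5.06, 6.78, 6.43 and 3.41 CPM against 11.8–17.2 CPM (−1.30, SE 0.22, adjusted p = 9.7e-05), and Arhgef17 at 43.8–48.4 CPM against 57.2–69.7 CPM (−0.45, SE 0.09, adjusted p = 0.000400). The falls of Ccn1 (−0.80, SE 0.21, adjusted p = 0.00470), Ajuba (−0.34, SE 0.10, adjusted p = 0.00901) and Ptpn14 (−0.32, SE 0.09, adjusted p = 0.00805) were each lost in 6 or 7 of the 9 fits that left out a library. These were NPC P15 1, 2 or 3 and NPC media 2 to 5 for Ccn1, NPC P15 2 to 4 and NPC media 1, 3, 4 or 5 for Ajuba, and NPC P15 1, 3 or 4 and NPC media 1, 3 or 5 for Ptpn14, with adjusted p from 0.0114 to 0.0419. With NPC P15 D3 as the reference 4 members were called, and Ajuba and Ptpn14 were not among them (adjusted p = 0.0556 and 0.744). Lats2 (−0.26, SE 0.08, adjusted p = 0.0175), Thbs1 (−0.29, SE 0.47) and Amotl2 (0.09, SE 0.17) were not called against NPC P15. The labels give no passage for the pipetted libraries, so passage and pipetting cannot be told apart. For the members called, mean CPM in NPC media and NPC P30 was 11.8 and 11.5 (F3), 5.68 and 4.11 (Ccn2) and 9.01 and 8.00 (Ccn1). It was 45.3 and 44.5 (Arhgef17), 42.0 and 41.4 (Ajuba) and 67.1 and 70.9 (Ptpn14), a comparison that was not tested.

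The hydrogel itself moved no member past the threshold. In NPC DCH against NPC media edgeR called 0 of 9 members and 4.32% of genes. An unadjusted p under 0.05 was found for 3 of the 9 and 21.1% of genes, and DESeq2 called 1 member, Lats2, and 7.02% of genes. Lats2 was at 39.8, 54.6, 43.7, 43.3 and 47.1 CPM in NPC DCH and 56.9, 65.7, 61.8, 63.6 and 56.4 CPM in NPC media, groups without overlap, and its log2FC of −0.41 (SE 0.10, adjusted p = 0.0101) was just outside the threshold. It was called without NPC DCH 2 (−0.48, adjusted p = 0.00410) or NPC media 1 (−0.43, adjusted p = 0.00925). The log2FC of the other members lay between −1.05 (Thbs1, SE 0.66) and 0.33 (Amotl2, SE 0.16). After 4 hours in DCH edgeR called 0 of 9 members against NPC DCH and 0.32% of genes, with 2 of 9 and 9.63% at an unadjusted p under 0.05 and 1 (Ptpn14) and 0.988% by DESeq2. Ptpn14 was at 49.4, 48.7, 44.2, 35.4 and 48.999 CPM after 4 hours and 67.2, 59.4, 61.4, 62.2 and 67.4 CPM before, again without overlap (−0.48, SE 0.11, adjusted p = 0.0223), and the other members' log2FC lay between −0.55 (Ccn2, SE 0.34) and 0.51 (Thbs1, SE 0.76). All 47 reads of Ankrd1 after 4 hours were in 1 of the 5 libraries, and NPC DCH held none.

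Grafting was followed from NPC in DCH, the state before injection, to grafts recovered from SCI at 14 d. Thbs1, at 0.954, 1.53, 0.816, 0.393 and 3.13 CPM in NPC DCH, was at 83.7, 56.6, 80.5, 58.4 and 98.2 CPM in the grafts (log2FC 6.17, SE 0.51, adjusted p = 3.2e-07). Ccn2 went from 3.40–7.59 to 42.2, 32.4, 52.5, 50.9 and 87.3 CPM (3.59, SE 0.36, adjusted p = 1.7e-06) and F3 from 7.63–14.4 to 77.5, 94.5, 118.8, 90.3 and 64.6 CPM (3.42, SE 0.21, adjusted p = 2.6e-08). None of these 3 genes overlapped between the groups. Ccn1 rose from 7.27–13.3 to 36.6–94.3 CPM (2.77, SE 0.27), Arhgef17 from 33.4–44.9 to 77.5–99.8 CPM (1.58, SE 0.14), and Amotl2 (1.06, SE 0.24) and Lats2 (1.03, SE 0.17) rose with overlapping ranges. Ajuba fell from 35.3–58.5 to 10.6–19.1 CPM (−1.12, SE 0.19, adjusted p = 0.000163), and Ptpn14 (59.4–67.4 and 34.3–46.8 CPM) was not called after TMM scaling (−0.31, SE 0.15, adjusted p = 0.0842), except without graft SCI 5 (−0.45, adjusted p = 0.00206). The counts were 7 higher and 1 lower of 9 tested, with a median of 1.58 beside 0.15 over all genes, of which 51.6% were called. Ankrd1 was not tested, with 0 reads in NPC DCH and 36 in the grafts, all of them in library 2. With NPC media as the state before grafting 8 members were called as well.

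Marker genes of other cell types were higher in the graft libraries as well. The fibroblast and pericyte sum was 13.6–19.9 CPM in NPC DCH and 1046–3873 CPM in SCI 14 d grafts, and only Rgs5 among its 7 genes was at 0 in a graft library. The sum of 7 myeloid markers was 0.259–1.24 CPM in NPC DCH and 218–721 CPM in the grafts, and oligodendrocyte markers went from 9.25–18.3 to 3708–9250 CPM. Of the 12 SRF and MRTF targets 11 were tested, of which 6 rose and 4 fell. Whether other cells or the grafted cells themselves gave these reads, and their part in the members' rise, was not tested.

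Tissue environment was compared among grafts at 14 d. Ccn1 and Ccn2 were highest in dSCI. Ccn1 was at 313, 177, 161, 93.04 and 64.7 CPM in dSCI, 53.5, 36.6, 94.3, 58.1 and 51.3 CPM in SCI, and 23.4, 36.7, 54.0, 66.7 and 43.99 CPM in uninjured cord. The lowest dSCI library fell within the range of the uninjured grafts. Against uninjured grafts its log2FC was 2.03 in dSCI (SE 0.34, adjusted p = 0.00342) and 0.68 in SCI (SE 0.29, adjusted p = 0.140). The call in dSCI was lost without uninjured library 2 (1.97, adjusted p = 0.0130) or dSCI library 2 (2.02, adjusted p = 0.0107).

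Ccn2 was at 387, 249.6, 242, 352 and 118 CPM in dSCI, above all SCI grafts (32.4–87.3 CPM), with 70.6, 182.6, 23.8, 126 and 165 CPM in uninjured cord. Its log2FC for dSCI was 2.20 against SCI (SE 0.32, adjusted p = 0.00447) and 1.40 against uninjured (SE 0.45, adjusted p = 0.0627). The call against SCI was lost in 5 of 10 fits that left out 1 library (SCI 1, 2, 3 or 4, or dSCI 2), at log2FC from 2.05 to 2.26. Thbs1 was at 396, 211, 179.3, 159.6 and 97.98 CPM in dSCI, above all uninjured grafts (10.0–91.7 CPM). Its log2FC for dSCI, 2.20 against uninjured (SE 0.49, adjusted p = 0.0121) and 1.35 against SCI (SE 0.29, adjusted p = 0.0140), missed the threshold in both cases and passed it under DESeq2 (adjusted p = 1.8e-05 and 0.000203). The first was also called without uninjured library 3 (1.93, adjusted p = 0.00793) or 5 (2.59, adjusted p = 0.00584) and the second without SCI library 5 (1.55, adjusted p = 0.00323) or dSCI library 5 (1.46, adjusted p = 0.00876).

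By counts, edgeR called 0 of 9 members for SCI against uninjured, where 4.64% of genes were called. There 3 of 9 members and 27.4% of genes had an unadjusted p under 0.05, and DESeq2 called 0 members and 11.7% of genes. In simulated data for this comparison edgeR called 8.33% of genes changed by a log2FC of 1 in size and 62.9% of those changed by 2. A member without a call may therefore still have changed. For dSCI against uninjured 1 of 9 was called at a background of 4.19%, and for dSCI against SCI 1 of 9 at 1.83%. These 3 comparisons share libraries, so their values are not independent of each other. Ankrd1, not tested there, held 153 reads in dSCI, 49 in uninjured and 36 in SCI grafts, the last all in 1 library, with a ratio of 3.42 (95% interval 2.47–4.82, counting error only) for dSCI against uninjured. Uninjured library 2 held most of the 49, and without it the ratio was 9.50. Amotl2 was at 91.4, 96.2, 83.4, 122 and 72.6 CPM in uninjured cord, above all SCI grafts (57.8, 53.6, 57.1, 21.1 and 53.5 CPM), and its log2FC of −0.65 (SE 0.25, adjusted p = 0.102) was not called. For SCI against uninjured Ccn2 was at −0.79 (SE 0.46, adjusted p = 0.297) and the members not yet given lay between −0.15 (Arhgef17) and 0.86 (Thbs1). For dSCI against uninjured those not yet given lay between −0.13 (Amotl2) and 0.75 (Ptpn14). For dSCI against SCI, Ptpn14 was at 47.9–83.2 CPM in dSCI and 34.3–46.8 CPM in SCI without overlap and without a call (0.64, SE 0.23, adjusted p = 0.0968). Ccn1 was not called either (1.34, SE 0.33, adjusted p = 0.0244), and the others lay between −0.22 (F3) and 0.51 (Amotl2).

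The group medians of the fibroblast and pericyte sum had the same order as those of Ccn2 but not of Ccn1 (53.5 CPM in SCI, 43.99 in uninjured) or Thbs1 (80.5 and 40.2 CPM), with 1522 CPM (1046–3873) in SCI, 3105 CPM (1695–4436) in uninjured and 11345 CPM (7214–27593) in dSCI. Myeloid markers summed to 297, 244 and 1211 CPM and endothelial markers to 24.6, 109 and 284 CPM in the same groups. Oligodendrocyte markers summed to 7175, 20162 and 5964 CPM and neuron markers to 219, 1007 and 316 CPM. The dSCI library with the highest fibroblast sum, 27593 CPM, also had the highest Ccn1, Ccn2 and Thbs1 of its group, and the one with the lowest, 7214 CPM, had the lowest of each. Among uninjured grafts the library with the lowest fibroblast sum (1695 CPM) had the lowest Ccn2 and Thbs1 too, but its Ccn1 (54.0 CPM) was above the group median. The uninjured library with the highest sum (4436 CPM) had the highest Ccn2 (182.6 CPM), but its Ccn1 (36.7 CPM) and Thbs1 (38.2 CPM) were below the group medians. Among SCI grafts the library with the lowest sum (1046 CPM) had the lowest Ccn1, Ccn2 and Thbs1. The SCI library with the highest sum (3873 CPM) had the highest Ccn2 and Thbs1, but its Ccn1 (51.3 CPM) was below the group median. The part of such cells in the members' levels was not tested.

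**Figure D4:**
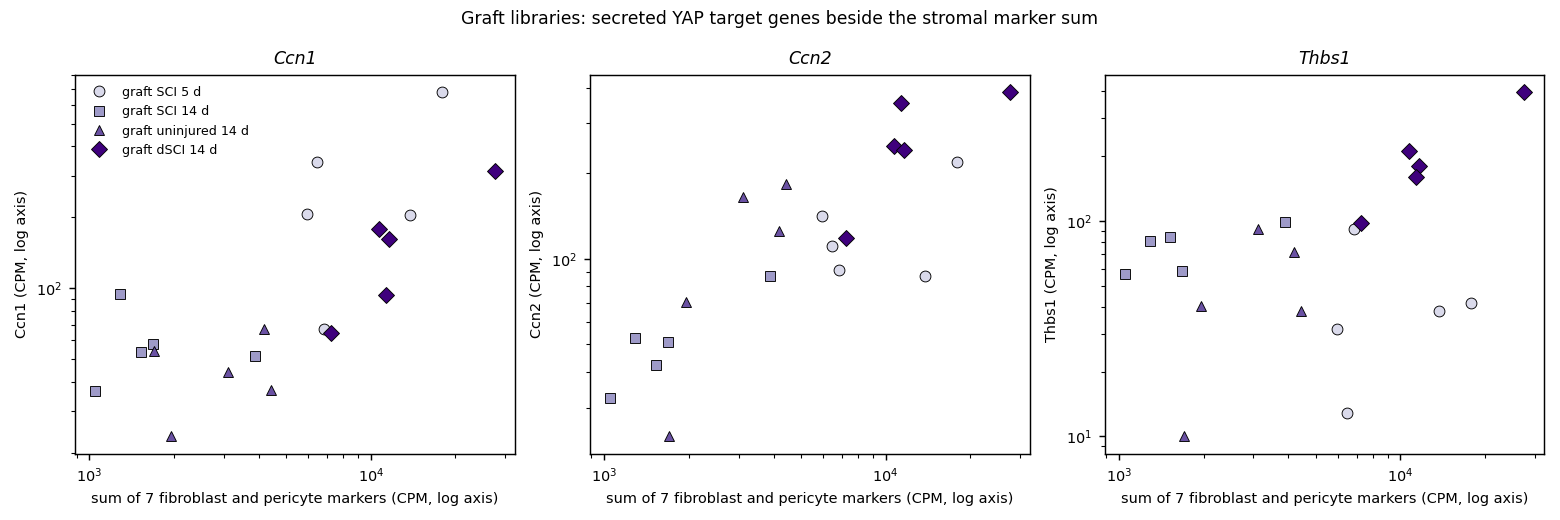
Levels of Ccn1, Ccn2 and Thbs1 in each of the 20 graft libraries (CPM, log y axis) against the summed level of 7 fibroblast and pericyte markers in the same library (CPM, log x axis), with a symbol for each group. The dSCI grafts (7214–27593 CPM on the x axis) and the 5 d grafts (5931–17892 CPM) lie to the right of the SCI and uninjured grafts at 14 d (1046–4436 CPM).

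Between 5 d and 14 d in SCI, F3 was the only one of 9 members tested that was called. Ccn1 was at 342, 205, 682, 67.2 and 206 CPM at 5 d against 36.6–94.3 CPM at 14 d, overlapping through the library at 67.2 CPM (log2FC −2.15 for 14 d, SE 0.48, adjusted p = 0.0114). Without that library, number 4, the fall was called (−2.41, adjusted p = 0.000936), as were Ajuba (−1.29, adjusted p = 0.00248) and Thbs1 (1.51, adjusted p = 0.00617). Ccn2 was at 111, 87.3, 219, 91.3 and 141 CPM at 5 d, at or above the highest 14 d library (−1.06, SE 0.33, adjusted p = 0.0574), and was called without 14 d library 5 (−1.38, adjusted p = 0.00917). Amotl2 (20.8–41.7 CPM at 5 d, log2FC 0.88, adjusted p = 0.0534) was called without 14 d library 4 (1.09, adjusted p = 0.00604). F3 alone was called, from 37.4, 30.3, 41.4, 43.6 and 68.0 CPM at 5 d to 64.6–118.8 CPM at 14 d (1.18, SE 0.22, adjusted p = 0.00470), a call lost in 5 of 10 fits that left out 1 library (14 d 2 or 3, or 5 d 1, 2 or 3) at adjusted p from 0.0134 to 0.0175. Lats2 (0.27, SE 0.27), Arhgef17 (0.26, SE 0.16) and Ptpn14 (−0.05, SE 0.20) were not called, and Ankrd1 held 53 reads at 5 d and 36 at 14 d, a ratio of 0.165 (95% interval 0.105–0.256) that is 0.359 without 5 d library 3 and rests on 1 library at 14 d. Thus 1 of 9 members was called where 5.3% of genes were. The 5 d libraries have 1 read data set and the 14 d libraries 2, so time and read layout cannot be told apart. The fibroblast sum was 5931–17892 CPM at 5 d and 1046–3873 CPM at 14 d, and its part was not tested.

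Host astrocytes after SCI had higher Ccn1, Ccn2, Thbs1, Ptpn14, Ajuba and Amotl2 than healthy ones, and lower F3. Ccn2 ranged from 2.23 to 4.40 CPM in the 9 healthy libraries (median 2.35) and was at 14.2, 20.7, 19.8, 20.3 and 17.8 CPM after SCI (log2FC 2.49, SE 0.18, adjusted p = 4.0e-09). Ccn1 ranged from 18.1 to 30.6 CPM (median 23.8) and was at 116, 107, 102.01, 97.1 and 133 CPM after SCI (2.08, SE 0.14, adjusted p = 2.0e-09). Thbs1 ranged from 1.39 to 3.97 CPM (median 2.66) and was at 13.8, 19.1, 13.5, 20.8 and 9.43 CPM (2.34, SE 0.24, adjusted p = 3.8e-07). Healthy and injured hosts were apart for all 3 genes.

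Ptpn14 ranged from 3.90 to 7.11 CPM (median 5.25) in healthy hosts and was at 19.2, 24.4, 16.1, 20.7 and 15.9 CPM after SCI (1.66, SE 0.14, adjusted p = 5.0e-08). Ajuba ranged from 2.61 to 8.35 CPM (median 3.69) and was at 15.9, 13.6, 17.01, 18.5 and 12.9 CPM (1.45, SE 0.22, adjusted p = 3.5e-05). Both genes thus rose without overlap in hosts. Amotl2 was at 28.2–42.0 CPM and at 66.5, 54.0, 58.1, 62.8 and 33.3 CPM after SCI, a rise of 0.50 (SE 0.12, adjusted p = 0.00235) that was not called without host SCI library 1 (0.42, adjusted p = 0.0124). F3, the member most abundant in healthy astrocytes, ranged from 267 to 319 CPM (median 277) and was at 196, 161, 207, 226 and 154 CPM after SCI, a fall of −0.77 (SE 0.09, adjusted p = 1.3e-06). Lats2 (log2FC 0.03, SE 0.17) and Arhgef17 (−0.05, SE 0.12) were not called. All 9 healthy libraries held 0 reads of Ankrd1 and 2 of the 5 SCI libraries held 112 between them, at least 49.1-fold higher over the group against a floor of 3 counts, in counting error only. Library 5 held most of them, and without it 14 reads remained, at least 7.74-fold higher.

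**Figure D5:**
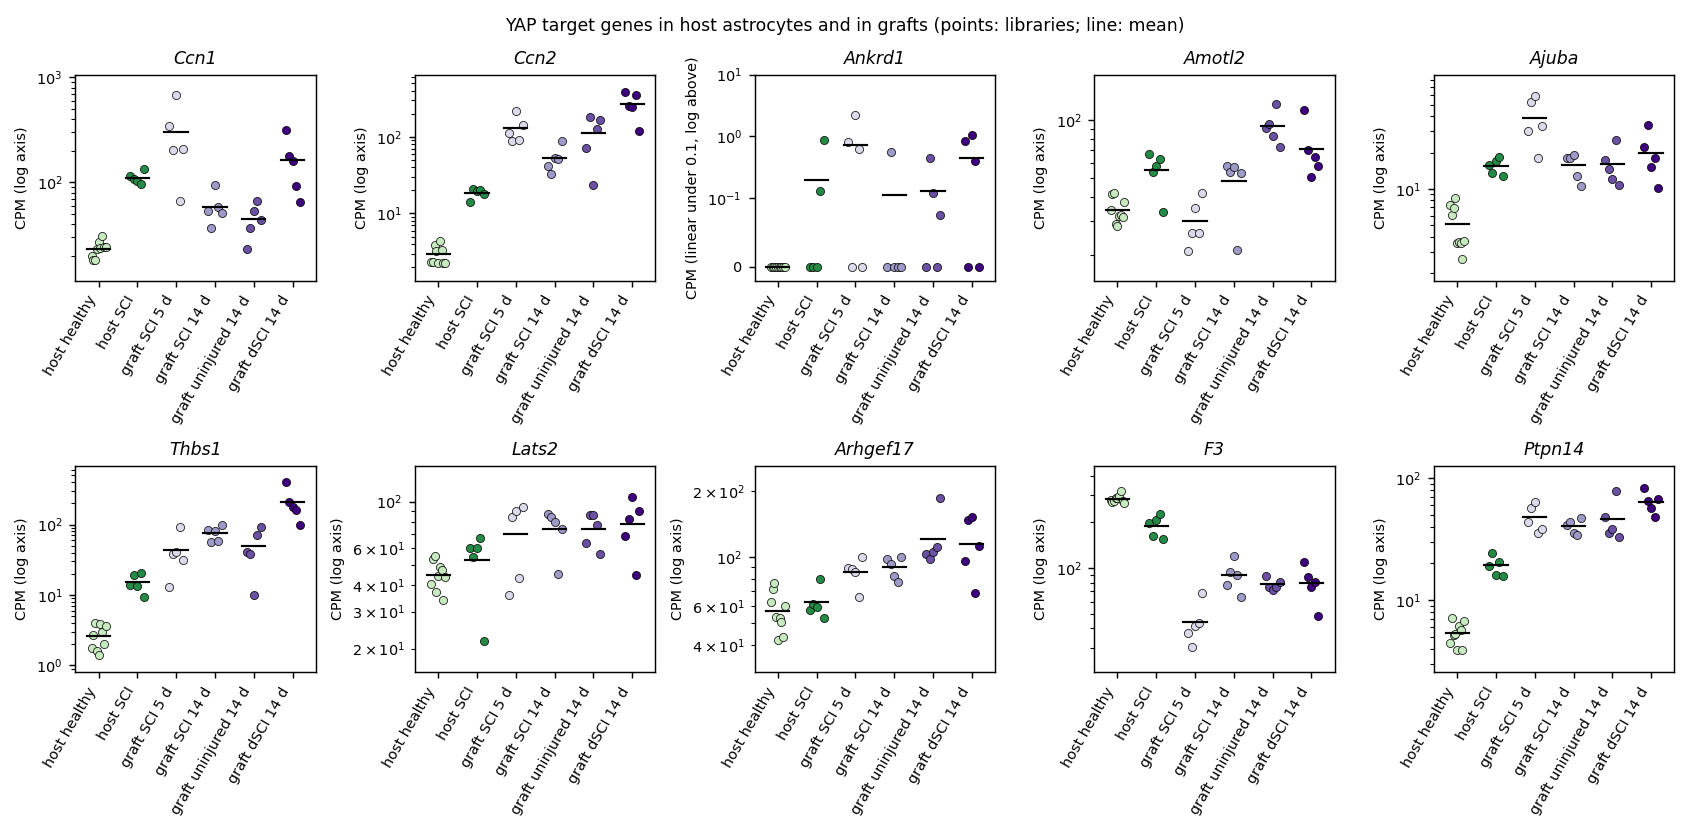
Levels of the 10 members in host astrocytes and grafts, with 1 panel per gene, groups on the x axis and CPM on a log y axis (for Ankrd1 linear under 0.1); points are libraries and lines group means. F3 is highest in healthy hosts (267–319 CPM), and the means of Ccn2 and Thbs1 are highest in dSCI grafts (269.8 and 209 CPM).

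In hosts 6 of 9 members rose and 1 fell, with a median of 1.45 beside 0.02 over all genes, of which 41.1% were called. The fibroblast and pericyte sum was 149–253 CPM in healthy hosts and 615–1410 CPM after SCI, with none of its 7 genes at 0. Myeloid markers summed to 9.98–18.4 and 100.9–488 CPM, and oligodendrocyte markers to 4975–10805 and 20897–35391 CPM. Host SCI library 5, with the lowest fibroblast sum (615 CPM), had the highest Ccn1 (133 CPM) and the lowest Thbs1 (9.43 CPM) of its group. Library 2, with the highest sum (1410 CPM), had the highest Ccn2 (20.7 CPM), while library 4 had the highest Thbs1 (20.8 CPM). The part of such cells was not tested. Of 24 Hippo genes and effectors 12 fell and 5 rose in hosts, with Yap1 at −0.45 (SE 0.09), Tead1 at −0.44 (SE 0.13), Tead2 at 1.32 (SE 0.17) and Tead3 at 0.79 (SE 0.15). The further YAP/TAZ-TEAD targets were divided, 5 of 14 higher and 4 lower, Igfbp3 at 2.54 (SE 0.14), Myof, a ferlin of membrane repair, at 2.44 (SE 0.17) and Tgfb2 at −0.62 (SE 0.07). Of 12 immediate-early genes 10 rose, Junb by 3.12 (SE 0.13), and of 12 SRF and MRTF targets 10 rose and 2 fell, Acta2 by 2.32 (SE 0.28).

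The effect of injury was then compared between settings, SCI against uninjured grafts at 14 d and SCI against healthy hosts. Of 9 members tested, 4 had a lower log2FC in grafts than in hosts and 1 a higher one, where 16.8% of all genes had a called interaction. For Ccn2 the log2FC were −0.79 (SE 0.46) in grafts and 2.49 (SE 0.18) in hosts, and the interaction was −3.31 (SE 0.49, adjusted p = 1.3e-05). For Ptpn14 they were 0.10 (SE 0.24) and 1.66 (SE 0.14), with an interaction of −1.60 (SE 0.28, adjusted p = 9.9e-05). Ccn1 (interaction −1.43, SE 0.31, adjusted p = 0.00104) and Amotl2 (−1.18, SE 0.27, adjusted p = 0.00154) were also lower, and F3, which fell in hosts, was higher (1.196, SE 0.17, adjusted p = 7.6e-06). The median interaction of the members was −1.26 beside −0.13 over all genes. Ajuba (−1.26, SE 0.36, adjusted p = 0.0102) was called without host healthy 1, 3 or 4 or uninjured graft 3 or 5 (−1.31 to −1.37), and Thbs1 (−1.51, SE 0.51, adjusted p = 0.0287) without uninjured graft 3 (−1.76, adjusted p = 0.00200). Lats2 (0.22, SE 0.27) and Arhgef17 (−0.14, SE 0.24) were not called. Uninjured grafts lay in cord pierced for the injection and healthy hosts received none, so the baselines of the 2 effects are not alike. Hosts were taken at 14 d after the crush, while the 14 d of grafts may count from grafting, so the times after injury may differ too.

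Across the 23 groups the members were compared by Pearson's r of log2(CPM + 1) of the group means, as a description in which groups of one culture experiment share medium and groups in vivo share other cell types. The closest pair was Ccn2 with Thbs1 (r = 0.93), followed by Ccn1 with Ccn2 (0.86) and Ccn1 with Thbs1 (0.84). The lowest was F3 with Ptpn14 (−0.39). Among 13124 genes with at least 10 CPM in a group, those most like Ccn1 were Cnn1 (0.92), the smooth muscle calponin, Acta2 (0.89), Smad6 (0.88), Omd (0.88) and Nuak1 (0.87). Those most like Ccn2 were Fhod1 (0.93), a formin, Fstl1 (0.92), St6galnac2 (0.91), Gata2 (0.90) and F11r (0.89). For Ankrd1 they were Cbr2 (0.88), Cnn1 (0.87), Acaa1b (0.86), Lurap1l (0.86) and a gene without a symbol (0.85). Without both groups of 1 read data set 2 of the 5 genes stayed among the 5 most like Ccn1, 4 for Ccn2 and 3 for Ankrd1.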

How the data were processed

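RiboTag RNA of 107 libraries in 23 groups was sequenced, and the groups were taken from the sample labels. Per the labels and the methods, the authors used Trimmomatic for trimming, HISAT2 for alignment to the mouse build mm10 and featureCounts for reads per gene, the last 2 steps at default parameters in Galaxy. The raw counts of each library were deposited, one column per library, and 0 columns belonged to other samples. The columns of 96 libraries name 2 read data sets, in which both mates seem to have been counted (53.1–73.8% of counts from 1 to 20 were even), and those of 11 libraries name 1 (43.1–48.5%). Library totals of 12286240–147764968 set the precision, and intervals and floors (3 counts over a group) cover counting error only. They take reads as independent, so intervals are too narrow where both mates of a fragment were counted.

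Genes were named by Entrez identifier (25275 from RefSeq, 17 from GENCODE), and FPKM used union exon lengths. Counts were filtered with filterByExpr (minimum count 10), scaled by TMM and tested with edgeR 4.0.16 in R 4.3.3 (quasi-likelihood F test, two-sided), on the groups compared only, with Benjamini-Hochberg adjustment over all genes tested and a threshold of 0.01. An SE is the absolute log2FC divided by the square root of F. The fit was tested on simulated data for 2 comparisons. For 20% FBS against SPONT edgeR called 68.7% of genes changed by a log2FC of 1 in size and 94.8% of those changed by 2. For SCI against uninjured grafts these shares were 8.33% and 62.9%. Alternatives were DESeq2 1.42.0 (size factors or Wald test), no filter, a filter of 1 CPM, a replicate block, other reference groups and leaving out each library. All members are reported in each comparison, by range where not called, and further lists mainly by their 4 genes called most often, with YAP, TAZ and TEAD genes always named. The members and lists were chosen with earlier results of these data known. Likeness was Pearson's r over group means of log2(CPM + 1), pseudocount 1, among genes with at least 10 CPM in a group.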

Additional observations from a re-analysis of the deposited data

Results flagged for a closer look

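Among 220 sets of a member in a group of 4 to 10 libraries, 15 held a library far from the others by Dixon's criterion, and chance gives about 1 in 20. For Ankrd1 these were single libraries with more reads than the others, which had few or none, at 0.107 CPM in CNTF 1, 0.594 CPM in NPC DCH 4 h 1, 0.862 CPM in host SCI 5, 0.564 CPM in graft SCI 14 d 2 and 0.448 CPM in graft uninjured 14 d 2. Amotl2 stood apart at 50.5 CPM in NPC P5 2, 17.4 CPM in NPC P15 3, 211 CPM in SPONT 2 and 21.1 CPM in graft SCI 14 d 4, the first above and the others below their groups. Ptpn14 was at 42.0 CPM in SPONT 1, above the other 3 libraries. Arhgef17 was high at 48.4 CPM in NPC media 5 and at 186 CPM in graft uninjured 14 d 5. Ccn1 was high at 14.2 CPM in NPC media 1, Thbs1 was low at 0.364 CPM in IGF-1 3, and Lats2 was low at 21.8 CPM in host SCI 5.

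In 10 cases the effect of one factor on a member differed between the levels of another by an interaction term in edgeR. For CNTF with against without 5% FBS the interactions were −2.38 (Ccn1), −3.16 (Ccn2), −0.71 (Ajuba), −1.51 (Thbs1) and 0.99 (Ptpn14) on the log2 scale. For injury in grafts against injury in hosts they were −1.43 (Ccn1), −3.31 (Ccn2), −1.18 (Amotl2), −1.60 (Ptpn14) and 1.196 (F3).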

How the results depend on the processing

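No member changed sign past the threshold under any alternative run. Of 903 member values with all libraries kept, 861 stayed on their side of the threshold, 13 lost it and 29 gained it. Of 1821 values in 197 fits that left out 1 library, 66 lost and 28 gained a call. DESeq2 called 4 members from 5% to 10% FBS where edgeR called 0, 3 from 10% to 20% FBS where edgeR called 1, 1 (Ptpn14) after 4 hours in DCH where edgeR called 0, and 3 in each of 14 d against 5 d, dSCI against uninjured and dSCI against SCI where edgeR called 1. For NPC DCH against NPC media, 1 member (Lats2) was called with DESeq2 size factors, with DESeq2, without a filter and with the filter at 1 CPM, where edgeR as reported called 0. Without a filter 2 were called in each of 14 d against 5 d, dSCI against uninjured and dSCI against SCI, and with size factors 2 in dSCI against uninjured. The cause was not tested.

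With 1 library left out the number of members called ranged from 0 to 2 (10% against 5% FBS), 0 to 3 (20% against 10% FBS), 3 to 5 (CNTF in 5% FBS), 3 to 6 (its interaction), 3 to 5 (NPC media against NPC P15), 0 to 1 (NPC DCH against NPC media), 0 to 4 (14 d against 5 d), 0 to 2 (dSCI against uninjured) and 0 to 2 (dSCI against SCI). Replicate numbers are shared between groups, and in 0 of 17 comparisons was every pair's correlation of deviations over 0.1, so they were taken to share only a number. All pairs were above 0 in 2 comparisons, 10% against 5% FBS (mean 0.257, from 0.0264 to 0.405, with 6 of 8 libraries closest to their own number) and 20% FBS against SPONT (0.0122 to 0.112, 5 of 8). With the replicate block 5 members were called for 10% against 5% FBS, and 0 for 14 d against 5 d, dSCI against uninjured and dSCI against SCI. Scaling by TMM moved 32 of 230 group levels by more than 1 SD. Ankrd1, with few or no reads in most groups, was not tested in 14 of 19 comparisons.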
